A study of Prunus avium with 6 samples.

Results

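Adagio 3 and a pair of BTB POZ genes of sweet cherry (Prunus avium), grouped here as putative adaptors of ubiquitin ligases by their F-box and BTB domains, were followed through leaves and ripe fruits of the cultivars ‘Bing’, ‘Lapins’ and ‘Rainier’. The 3 genes are Pav_sc0000893.1_g420.1.mk (adagio 3), Pav_sc0000890.1_g380.1.mk (BTB POZ domain-containing NPY1) and Pav_sc0000886.1_g240.1.mk (BTB POZ domain-containing At5g41330), of 43673 predicted genes, 16519 of which had a read. They were selected on their unique reads in the 6 libraries, so their levels and ratios are given as a description without a test.

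There was 1 library for each cultivar and tissue, 3 of leaf and 3 of fruit, all from the 2012 season and with the same age label. ‘Bing’ was sampled in Quillota, ‘Lapins’ in Los Andes and ‘Rainier’ in San Francisco de Mostazal, in Chile, so cultivar and site cannot be told apart. The RNA was sequenced by pyrosequencing, and the values are numbers of reads that match 1 predicted coding sequence only, here called unique reads. How many trees went into a library is not given in the labels.

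Ubiquitin ligases attach ubiquitin to chosen proteins, often to mark them for breakdown, and the adaptor is the subunit that picks the protein. F-box proteins are the adaptors of ligases built on cullin 1, and many BTB proteins are those of ligases built on cullin 3. Adagio 3 is the name of the Arabidopsis F-box protein FKF1, a blue-light receptor that acts with the circadian clock on flowering time and targets the cyclic dof factors. NPY1 of Arabidopsis is a BTB protein with an NPH3 domain that acts in organ formation under the control of auxin. The third name, At5g41330, is that of an Arabidopsis locus and gives no role. In the annotation of the study the cherry adagio 3 carries F-box, PAS and kelch repeat domains, NPY1 carries BTB/POZ and NPH3 domains, and At5g41330 carries a BTB domain of the potassium channel tetramerisation type with a match to the WD40 superfamily.

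The libraries held between 70058 and 116264 unique reads, the most in fruit of ‘Bing’, and 9276 to 11231 genes had a read in each. A count of 0 allows up to 3 reads, which is 0.258 to 0.428 reads per 10000 unique reads, and the 95% intervals given below are exact and cover counting error alone. The tissue labels were checked on marker genes. Summed reads of 5 leaf markers were 14.2 to 23.8 per 10000 in leaves and 0.357 to 1.20 in fruits, with the chlorophyll a-b binding gene at 48 to 57 reads in leaves and 0 or 1 in fruits, although glycine dehydrogenase had 0 reads in every leaf. The 6 fruit markers summed to 1.71 to 3.28 per 10000 in leaves and 4.88 to 9.95 in fruits. Xyloglucan endotransglucosylase hydrolase 28 carried this excess, with 8, 15 and 6 reads in leaves and 55, 35 and 36 in fruits (‘Bing’, ‘Lapins’, ‘Rainier’). Flavonoid 3'-monooxygenase, with 6, 5 and 4 reads in leaves and 32, 37 and 4 in fruits, added to it in ‘Bing’ and ‘Lapins’ only. Expansin-A1-like and 1 of 2 polygalacturonases were at 0 everywhere, and the other polygalacturonase had 1 or 2 reads in each library. ACC synthase was at 0 in the fruits and had 1 or 2 reads in each leaf. Of 6 markers of pollen, stigma, seed and phloem, 5 were at 0 throughout, and POLLEN DEFECTIVE IN GUIDANCE 1 had 11, 1 and 7 reads in the fruits and 1, 0 and 0 in the leaves (order ‘Bing’, ‘Lapins’, ‘Rainier’). Its part in the levels of the 3 genes in fruit was not tested.

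All 3 genes had their highest fruit level in ‘Bing’, and they differed in tissue. At5g41330 was higher in leaf in each cultivar, NPY1 was higher in fruit in ‘Bing’ and ‘Lapins’, and adagio 3 was higher in leaf in ‘Lapins’ and ‘Rainier’, with 35 leaf and 37 fruit reads in ‘Bing’. In bulk tissue, fewer cells of a type and less RNA per cell cannot be told apart. Every read counted for the 3 genes was a unique read, with 0 reads shared with another gene in any library, as for 91.7% of the 3842 genes with at least 30 reads over the 6 libraries.

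**Figure D1:**
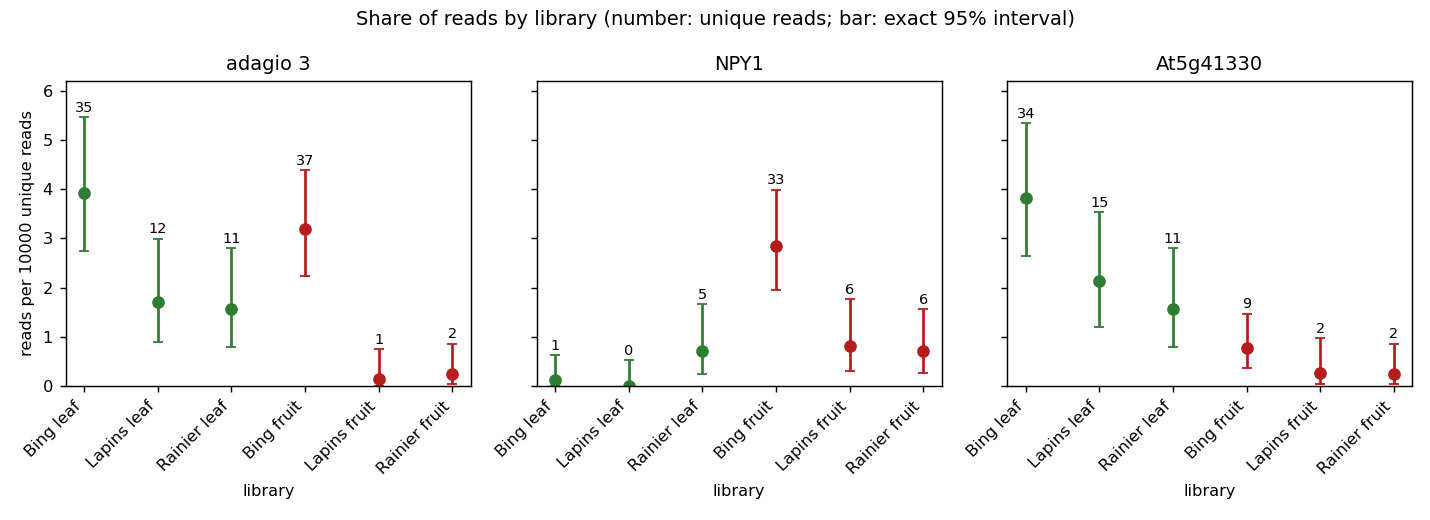
Reads per 10000 unique reads of adagio 3, NPY1 and At5g41330 (vertical axis) in each of the 6 libraries (horizontal axis; leaf green, fruit red), with exact 95% intervals for counting error and the number of unique reads above each bar. Adagio 3 in fruit stands at 37 reads in ‘Bing’ against 1 and 2 in the other cultivars, NPY1 is highest in fruit of ‘Bing’ with 33 reads, and At5g41330 is higher in each leaf than in each fruit.

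Adagio 3, the F-box gene, had 98 reads in all over a coding sequence of 1821 bases. Its leaf reads were 35 for ‘Bing’, 12 for ‘Lapins’ and 11 for ‘Rainier’, or 3.93 (2.74 to 5.47), 1.71 (0.885 to 2.99) and 1.57 (0.782 to 2.80) reads per 10000. In fruits it had 37, 1 and 2 reads in the same order, or 3.18 (2.24 to 4.39), 0.134 (0.0034 to 0.749) and 0.238 (0.0289 to 0.861) reads per 10000. Both libraries of ‘Bing’ thus stood at the top and the fruits of ‘Lapins’ and ‘Rainier’ at the bottom, and leaves and fruits overlapped. ‘Bing’ supplied 72 of the 98 reads, 73.5%, while it supplied 40.7% of all unique reads. Of the 40 reads in fruit, 92.5% came from ‘Bing’.

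The share of adagio 3 in fruit of ‘Bing’ was 23.7 times that in ‘Lapins’ (95% interval 3.99 to 960) and 13.4 times that in ‘Rainier’ (3.45 to 114). Against the reads of both other fruits together the ratio was 16.8 (5.32 to 85.1), and 42 of 3748 genes, 1.12%, had a ratio as large. The upper bounds rest on 1 and 2 reads in the lower fruits. In leaves the gap was narrower, 2.30 times over ‘Lapins’ (1.16 to 4.86) and 2.51 times over ‘Rainier’ (1.25 to 5.48), and 9.06% of 3798 genes had as large a leaf ratio to both together. ‘Lapins’ and ‘Rainier’ were close to each other in leaf, with a ratio of 1.09 (0.442 to 2.73), and in fruit the interval of their ratio was too wide to place them (0.564, 0.00957 to 10.8).

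Between tissues the share was higher in leaf than in fruit in each cultivar, by the least in ‘Bing’. Leaf over fruit was 1.24 (0.756 to 2.02) in ‘Bing’. In ‘Lapins’ it was 12.7 (1.88 to 545) and in ‘Rainier’ 6.58 (1.44 to 61.1). The mean share was 2.40 ± 1.33 reads per 10000 in leaves and 1.19 ± 1.73 in fruits (SD, n = 3), a log2 ratio of fruit to leaf of -1.02. Without the fruit of ‘Bing’ that ratio was -3.69 on the log2 scale, and without the leaf of ‘Bing’ it was -0.47. The order of the 6 levels was leaf of ‘Bing’, fruit of ‘Bing’, leaf of ‘Lapins’, leaf of ‘Rainier’, fruit of ‘Rainier’ and fruit of ‘Lapins’. The intervals of neighbours in this order overlapped at every step.

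**Figure D2:**
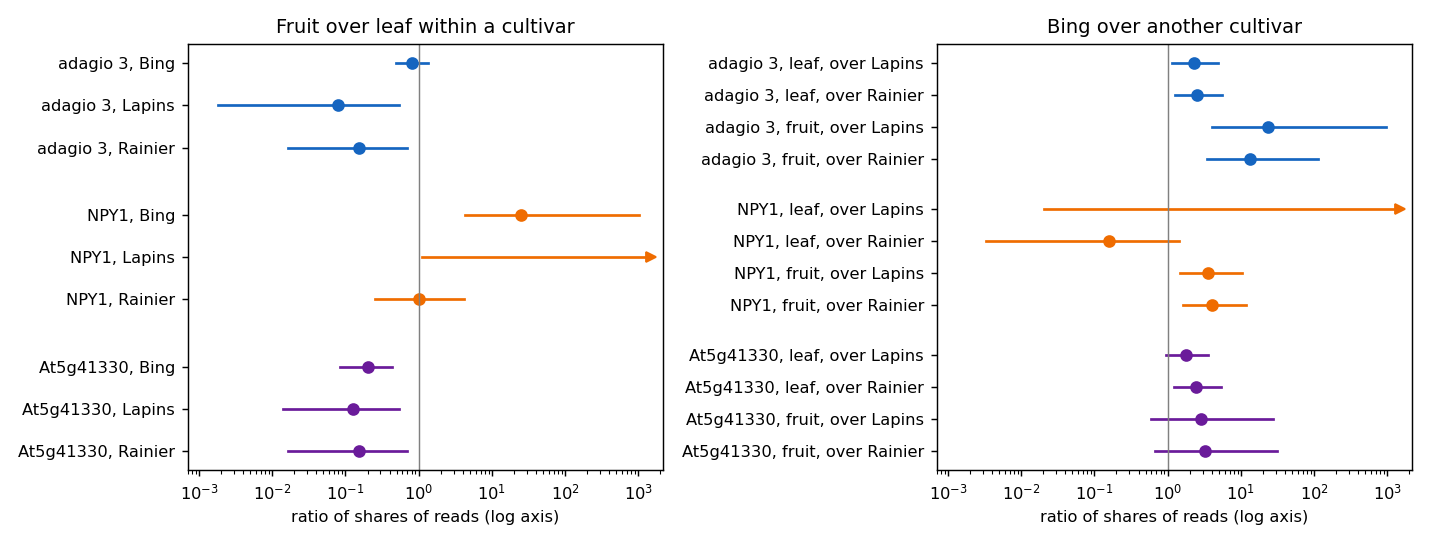
Ratios of shares of unique reads on a log axis, with exact 95% intervals, for adagio 3, NPY1 and At5g41330: fruit over leaf within each cultivar (left) and ‘Bing’ over ‘Lapins’ or ‘Rainier’ within each tissue (right); an arrow marks an interval with no upper bound and the grey line a ratio of 1. Adagio 3 lies at 23.7 and 13.4 in fruit of ‘Bing’ over the other cultivars, and At5g41330 lies to the left of 1 for fruit over leaf in each of the 3 cultivars.

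NPY1, the BTB gene with an NPH3 domain, had 51 reads over a coding sequence of 2130 bases, 45 of them in fruit. Its fruit reads were 33 for ‘Bing’, 6 for ‘Lapins’ and 6 for ‘Rainier’, or 2.84 (1.95 to 3.99), 0.807 (0.296 to 1.76) and 0.715 (0.262 to 1.56) reads per 10000. In leaves it had 1, 0 and 5 reads in the same order, or 0.112, 0 and 0.712 reads per 10000. Fruit of ‘Bing’ stood far above the other libraries, and the leaf of ‘Rainier’ lay beside the fruits of ‘Lapins’ and ‘Rainier’. The lowest fruit and the highest leaf, 0.715 and 0.712, did not overlap only by a margin far inside counting error.

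In fruit the share of NPY1 in ‘Bing’ was 3.52 times that in ‘Lapins’ (1.46 to 10.3) and 3.97 times that in ‘Rainier’ (1.64 to 11.6). The ratio to both together was 3.74 (1.88 to 7.96), and 6.54% of 3748 genes had one as large. ‘Lapins’ and ‘Rainier’ differed by a ratio of 1.13 (0.302 to 4.22). In leaf the counts of 1, 0 and 5 are at or near the 3 reads that a count of 0 allows, and no order of the cultivars could be read there.

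Fruit over leaf for NPY1 was 25.3 in ‘Bing’, with a lower bound of 4.23 and an upper bound set by the 1 leaf read, and in ‘Lapins’, with 6 reads against 0, the exact lower bound was 1.11 and the ratio with the leaf set to 3 reads was 1.88. In ‘Rainier’ the ratio was 1.00 (0.255 to 4.16). The mean share was 0.275 ± 0.383 reads per 10000 in leaves and 1.45 ± 1.20 in fruits (SD, n = 3), a log2 ratio of 2.40, and the reads pooled by tissue gave a ratio of 6.26 (2.66 to 18.0). The log2 ratio was 4.69 without the leaf of ‘Rainier’ and 1.47 without the fruit of ‘Bing’. Of 3842 genes, 8.67% had a ratio of mean fruit to mean leaf share as high as that of NPY1.

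At5g41330, the second BTB gene, had 73 reads over a coding sequence of 1410 bases, 60 of them in leaf. Its leaf reads were 34 for ‘Bing’, 15 for ‘Lapins’ and 11 for ‘Rainier’, or 3.82 (2.65 to 5.34), 2.14 (1.20 to 3.53) and 1.57 (0.782 to 2.80) reads per 10000. In fruits it had 9, 2 and 2 reads in the same order, or 0.774, 0.269 and 0.238 reads per 10000. The lowest leaf lay above the highest fruit, so the tissues did not overlap.

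Leaf over fruit for At5g41330 was 4.93 in ‘Bing’ (2.32 to 11.7), 7.96 in ‘Lapins’ (1.85 to 71.8) and 6.58 in ‘Rainier’ (1.44 to 61.1). The mean share was 2.51 ± 1.17 reads per 10000 in leaves and 0.427 ± 0.301 in fruits (SD, n = 3), a log2 ratio of fruit to leaf of -2.55. Leaving out 1 library at a time kept this ratio between -3.31, without the fruit of ‘Bing’, and -2.12, without the leaf of ‘Bing’. All fruits below all leaves was a common pattern, seen in 22.6% of the 3842 genes with at least 30 reads, and all fruits above all leaves, the order of NPY1, was seen in 24.6%. A ratio of fruit to leaf as low as that of At5g41330 was seen in 11.7%.

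Between cultivars, the leaf share of At5g41330 in ‘Bing’ was 1.78 times that in ‘Lapins’ (0.946 to 3.53) and 2.44 times that in ‘Rainier’ (1.21 to 5.33). In fruit it was 2.88 times (0.596 to 27.4) and 3.25 times (0.673 to 30.9), both with 9 reads against 2.

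Read side by side, the 3 genes leaned to ‘Bing’ in fruit. The highest of the 3 fruit shares was in ‘Bing’ for all 3 genes, as it was for 42.4% of the genes with at least 30 reads. The highest leaf share was in ‘Bing’ for adagio 3 and At5g41330, against 37.6% of those genes. Among genes with at least 10 reads in 1 of the libraries compared, a share in ‘Bing’ of at least 2 times that in the other cultivar was found for adagio 3 alone over ‘Lapins’ in leaf (all genes 20.0%) and for adagio 3 and At5g41330 over ‘Rainier’ in leaf (21.4%). In fruit it was found for adagio 3 and NPY1, over ‘Lapins’ (32.3%) and over ‘Rainier’ (30.6%), while At5g41330 stayed below 10 reads in each fruit. Since these reads chose the genes, nothing is read from the counts against those shares.

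**Figure D3:**
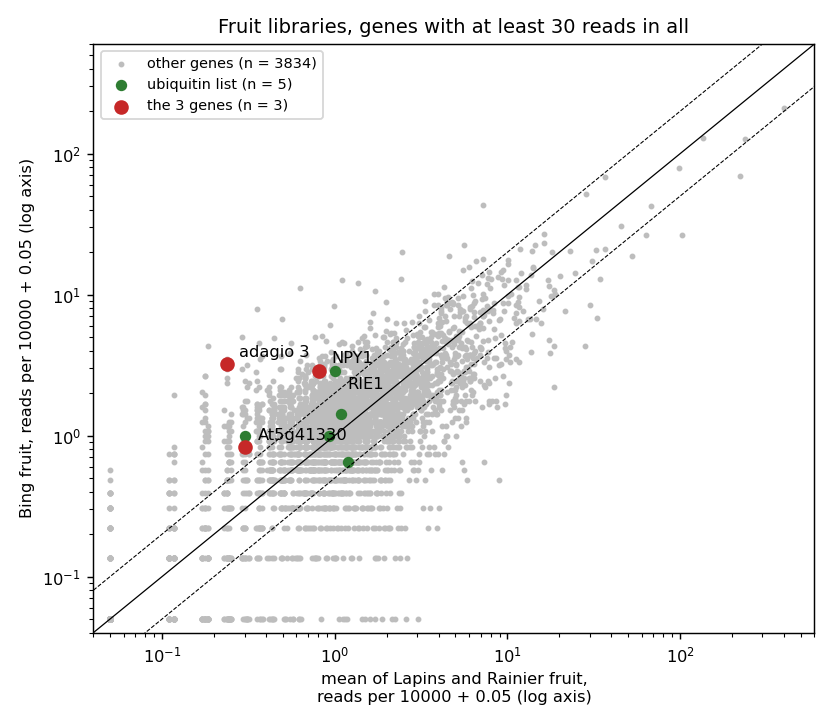
Share of reads in fruit of ‘Bing’ (vertical axis) against the mean share in fruits of ‘Lapins’ and ‘Rainier’ (horizontal axis), both as reads per 10000 plus 0.05 on log axes, for the 3842 genes with at least 30 reads over the 6 libraries; red marks the 3 genes, green the 5 such genes of the ubiquitin list, the solid line equal shares and the dashed lines a 2-fold difference. Adagio 3, at 16.8 times the pooled share of the other fruits, lies near the upper left edge of the cloud, and RIE1 lies beside NPY1.

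Levels of different genes were compared per length, as RPKM. In leaves the RPKM of At5g41330 was highest and that of NPY1 lowest in every cultivar. The leaf reads of At5g41330 and adagio 3 were close, 34 and 35 in ‘Bing’, 15 and 12 in ‘Lapins’ and 11 and 11 in ‘Rainier’. The order of these 2 genes in leaves thus rests mainly on their coding lengths, 1410 and 1821 bases, and is within counting error. The RPKM of At5g41330 in leaves of ‘Bing’, ‘Lapins’ and ‘Rainier’ was 266, 148 and 109, that of adagio 3 was 212, 91.9 and 84.2, and that of NPY1 was 5.17, 0 and 32.7. In fruits the order changed with the cultivar, but on few reads in ‘Lapins’ and ‘Rainier’, and the RPKM carry no interval. NPY1, At5g41330 and adagio 3 had 6, 2 and 1 reads in fruit of ‘Lapins’ and 6, 2 and 2 in ‘Rainier’. In fruit of ‘Bing’ the reads of adagio 3 and NPY1, 37 and 33, were close. Adagio 3 led in fruit of ‘Bing’ with an RPKM of 172, followed by NPY1 with 131 and At5g41330 with 54.1. In fruit of ‘Lapins’ the RPKM was 37.1 for NPY1, 18.7 for At5g41330 and 7.24 for adagio 3, and in fruit of ‘Rainier’ it was 33.0, 16.6 and 12.8. The median RPKM of genes with a read was 30.1 to 34.9 in the libraries, so that adagio 3 passed from percentile 91.7 of the genes with a read in fruit of ‘Bing’ to percentiles 6.73 and 21.3 in fruits of ‘Lapins’ and ‘Rainier’.

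The wider ubiquitin system was taken from the 581 annotated genes used here, of 43673 predicted genes. This gave a list of 27, of which 18 had a read, and genes outside the annotated ones were not looked at. On this list the other adaptors had few or 0 reads, and 0 was usual, as only 16519 of the 43673 predicted genes had a read. Since the 3 genes were chosen on their reads, nothing is read from this contrast. Of 5 further F-box genes 4 had 0 reads, and the remaining gene, an F-box FBD LRR-repeat gene, had 3 reads in all. BTB POZ domain-containing At1g63850 had 2, 1 and 1 reads in leaves and 2, 2 and 3 in fruits of ‘Bing’, ‘Lapins’ and ‘Rainier’, and cullin-1-like, the scaffold type that holds F-box proteins, had 0 reads in each. Summed over the list, reads per 10000 were 7.53, 7.85 and 7.55 in the leaves and 10.06, 6.32 and 6.55 in the fruits, with the fruit of ‘Bing’ highest. Without RIE1 the sums were 6.52, 7.57 and 7.12 in the leaves and 7.22, 5.24 and 5.72 in the fruits, with the leaf of ‘Lapins’ highest.

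The ligase genes with at least 10 reads in a library were RIE1, MARCH and RNF185-like. RIE1 (Pav_sc0000893.1_g380.1.mk), a RING ligase named after an Arabidopsis gene needed for seed development, had 9, 2 and 3 reads in leaves and 33, 8 and 7 in fruits. Its share in fruit of ‘Bing’ was 2.64 times that in ‘Lapins’ (1.19 to 6.61) and 3.40 times that in ‘Rainier’ (1.48 to 9.12), and both pairs passed the proportions test of Kal et al., whose p was not adjusted. Adjusted over the genes with a read, the pair with ‘Rainier’ was still called and the pair with ‘Lapins’ was not. RIE1 was the only gene of the list called in a fruit pair, and 0 were called in a leaf pair. Of all genes with at least 10 reads in a library of the tissue, 49.1% in fruit and 40.9% in leaf were called in either direction. Only 5 genes of the list had this depth, all of them in a fruit and only MARCH and PIAL2 in a leaf, too few to set against these percentages. The test compares 2 libraries, not 2 cultivars. With at least 10 reads required in both libraries the call was lost, which left 0 calls in fruit, and with TMM library sizes PIAL2 was called as well. The RIE1 identifier is on the same scaffold as adagio 3, sc0000893.1. So are those of other genes of the list, such as ubiquitin carboxyl-terminal hydrolase 2, and nothing is read from the shared scaffold.

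The remaining genes of the list at this depth showed no call in any pair under the same test. MARCH had 6, 11 and 4 reads in leaves and 11, 6 and 8 in fruits, and RNF185-like had 3, 4 and 1 and 7, 10 and 8. Ubiquitin carboxyl-terminal hydrolase 2, of the enzymes that remove ubiquitin, had 4, 6 and 5 reads in leaves and 11, 2 and 2 in fruits. PIAL2, a ligase of the ubiquitin-like protein SUMO, had 14, 8 and 4 reads in leaves and 16, 4 and 13 in fruits. It was the only gene of the list that passed the filter on low counts of edgeR, with a log2 difference of fruit to leaf of -0.03 (SE 0.52, adjusted p = 0.964, edgeR quasi-likelihood test) and of ‘Bing’ to the other cultivars of 0.64 (SE 0.65, adjusted p = 0.815). Thus 0 genes of the list were called between tissues or for ‘Bing’ by edgeR, 0 had an unadjusted p under 0.05, and DESeq2 also called 0. Over all 1864 genes tested, edgeR called 19.4% higher and 26.3% lower in fruit, and 0.429% for ‘Bing’ in either direction.

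For adagio 3, genes of light signalling and the clock were taken from the annotated genes by words of their descriptions, not as known partners. They had too few reads to compare. Of 6 on the list 5 had a read, none reached 10 in a library and 0 passed the filter of edgeR. Cyclic dof factor 3, of the family that FKF1 targets in Arabidopsis, had 2, 2 and 0 reads in leaves and 3, 0 and 5 in fruits. An APRR1 gene, named after a clock component, had 3, 7 and 1 and 2, 3 and 4 reads, a second one had 2 reads in both libraries of ‘Bing’ and 0 elsewhere, and CONSTANS-LIKE 11 had 0 reads throughout. Adagio 3, chosen on its reads, had 35 and 37 in ‘Bing’, above every gene of this list in any library. Its leaf reads in ‘Lapins’ and ‘Rainier’, 12 and 11, were also above the list. In fruits of ‘Lapins’ and ‘Rainier’ it had 1 and 2 reads, below the first APRR1 gene with 3 and 4. These reads are not scaled to length.

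The auxin list, kept for NPY1, held 3 genes. The receptor kinase gene TMK1-like is named after an Arabidopsis kinase of auxin signalling. It had 4, 1 and 1 reads in leaves and 25, 14 and 19 in fruits of ‘Bing’, ‘Lapins’ and ‘Rainier’, with no overlap. All fruits above all leaves was seen in 24.6% of the 3842 genes with at least 30 reads. TMK1-like was higher in fruit by 2.84 on the log2 scale (SE 0.57, adjusted p = 0.000611, edgeR quasi-likelihood test), in 3 of 3 cultivars. Beside it, 19.4% of the 1864 genes tested were called higher in fruit. It was the 1 gene of the list that passed the filter, which it did through its fruit reads, so the filter was not independent of this difference. Tested without the filter, it was also called higher in fruit. Its fruit reads were spread over the 3 cultivars, whereas 73.3% of those of NPY1 came from ‘Bing’. IAA-alanine resistance 1 had 22 reads in all and SHOOT GRAVITROPISM 5 had 10.

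The profiles of the 3 genes over the 6 libraries were set against those of 3841 genes with at least 30 reads, by Pearson's r of log2(reads per 10000 + 0.5), as a description over 6 points that share depth and tissue. Adagio 3 and At5g41330 ran alike at r = 0.815 and separated at the fruit of ‘Bing’, with 37 reads of adagio 3 and 9 of At5g41330. NPY1 gave r = -0.06 with adagio 3 and -0.60 with At5g41330. Among the 74 described genes the closest to adagio 3 were a short-chain dehydrogenase TIC chloroplastic-like gene (r = 0.881; 26, 15 and 21 reads in leaves and 35, 13 and 16 in fruits), At5g41330 itself, and a thylakoidal processing peptidase gene (r = 0.810). Over all 3841 genes these ranked only 58, 128 and 133. The peptidase gene was also the closest of all genes to At5g41330, at r = 0.993, with 18, 11 and 7 reads in leaves and 6, 1 and 1 in fruits.

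Among the described genes a TIC chloroplastic gene (r = 0.940) and a homeobox BEL1 homolog (r = 0.912) followed for At5g41330, at ranks 71 and 162 of all genes. For NPY1 the closest described genes were formin 20 (r = 0.870; 4, 0 and 4 reads in leaves and 20, 9 and 11 in fruits), aquaporin PIP1-3 (r = 0.829) and a eukaryotic translation initiation factor-like gene (r = 0.821). Their ranks among all genes were 105, 194 and 211. The profile of At5g41330 was a common one, for 5.49% of the genes reached r of 0.9 with it, against 1.20% for adagio 3 and 1.51% for NPY1.

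**Figure D4:**
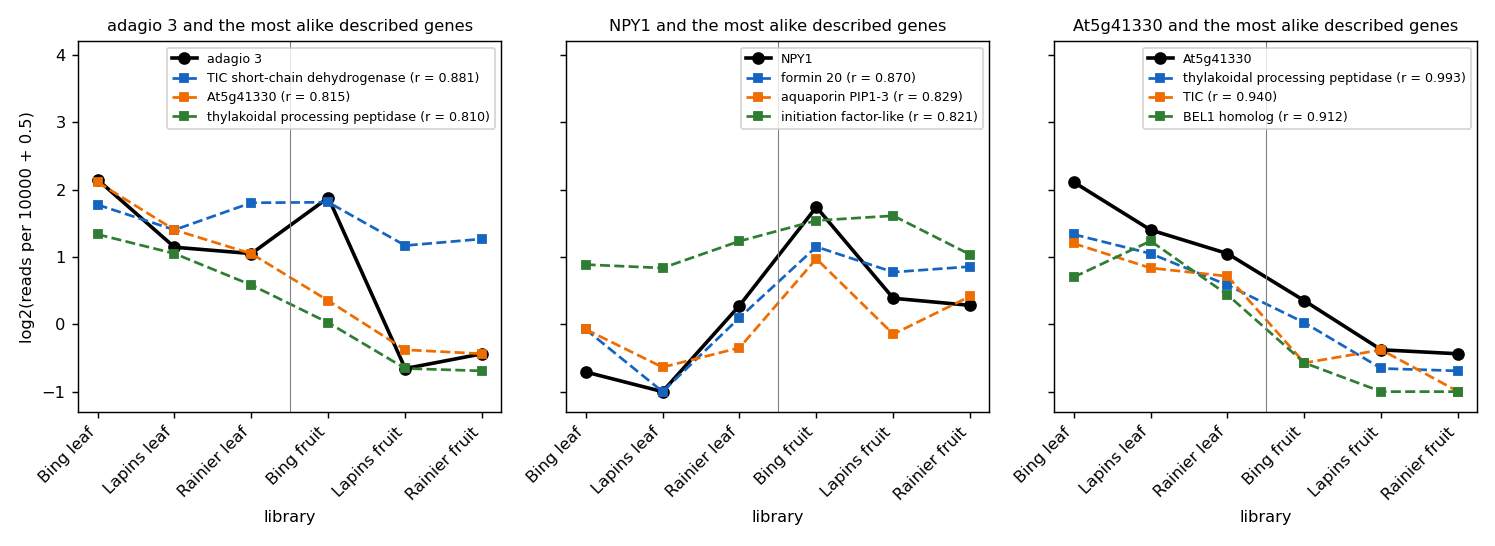
Profiles of adagio 3, NPY1 and At5g41330 (black) and of the 3 described genes most like each (coloured, with Pearson's r) as log2(reads per 10000 + 0.5) on the vertical axis over the 6 libraries on the horizontal axis; a grey line parts leaves from fruits. Adagio 3 is near its highest point in fruit of ‘Bing’, with 37 reads, and lowest in the other fruits, while At5g41330 and the thylakoidal processing peptidase gene (r = 0.993) are both low in every fruit.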

How the data were processed

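For each library the authors mapped trimmed pyrosequencing reads to 43673 predicted coding sequences in CLC Genome Workbench 11.0.1 (similarity 0.9, length fraction 0.6) and deposited counts of unique and total gene reads and RPKM values. Unique read counts were used, with the deposited RPKM (decimal commas) as the level per length and the source of coding length. The deposited TPM was not used. The 3 genes and the gene lists were chosen with earlier results of these data known.

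Shares and their ratios carry exact (Clopper-Pearson) 95% intervals. As the criteria of the study were read here, the proportions test of Kal et al. called a gene between 2 libraries where p did not exceed 0.05, the shares differed at least 2-fold and either library held 10 or more reads. The study does not say whether 10 reads were asked of either library or of both, and the second reading was an alternative. Fruit and leaf, and ‘Bing’ against the other cultivars (tissue and cultivar in the model), were tested by the quasi-likelihood method of edgeR 4.0.16 (R 4.3.3). TMM sizes and genes that passed filterByExpr were used, at a Benjamini-Hochberg adjusted p under 0.05. The p-values measure the spread between these libraries. Between tissues the 3 cultivars stood in as replicates. For ‘Bing’ the leaf and the fruit of each cultivar did, so that p does not measure the spread between trees of a cultivar. DESeq2 1.42.0 was an alternative, and the sum of the ubiquitin list without RIE1 was added after seeing the data. Named were the 3 genes, list genes with at least 10 reads in a library or a call, and the 3 described genes with the highest r to each. Names came from the 581 annotated genes used here. Leaf and fruit of 1 cultivar come from the same site, and the correlation of their departures from the mean of each tissue was 0.143 (‘Bing’), -0.0404 (‘Lapins’) and 0.0879 (‘Rainier’), against -0.242 to 0.229 for different cultivars.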

Additional observations from a re-analysis of the deposited data

How the results depend on the processing

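Total reads, TMM or upper-quartile library sizes kept all 9 ratios of the 3 genes in sign and within the spread, in 27 of 27 values. As every read of the 3 genes was unique, total reads could change the library sizes only. TMM moved the fruit to leaf scale by -0.16 on the log2 scale for all genes. Of 29 values of the 9 ratios with 1 library left out, 22 stayed within the spread. The fruit to leaf SD was 1.48 for adagio 3, 2.25 for NPY1 and only 0.24 for At5g41330. A value of At5g41330 outside it can therefore be a small change. Leaving out 1 library gave log2 ratios of fruit to leaf from -3.69 to -0.47 for adagio 3, from 1.47 to 4.69 for NPY1 and from -3.31 to -2.12 for At5g41330. NPY1 in leaf could not be set against ‘Lapins’ alone, which had 0 reads. Calls of ubiquitin genes in fruit pairs, 1 as reported, were 0 with 10 reads in both libraries and 2 with TMM sizes, the second being PIAL2. Of the 3 described genes most like each gene, a minimum of 100 reads kept 1 for adagio 3, 0 for NPY1 and 0 for At5g41330, since the others fell below it, and a pseudocount of 1 kept 2, 2 and 3, with RIE1 among those most like NPY1. With the cultivar as a replicate block, 0 ubiquitin genes and 1 auxin gene, TMK1-like, were called between tissues, as without it. Without the filter on low counts, edgeR tested 18 ubiquitin genes and called 0, with 1 at an unadjusted p under 0.05 for fruit against leaf and 1 for ‘Bing’. Of all genes, 362 were called higher and 490 lower in fruit by edgeR, against 708 and 1249 without that filter and 331 and 756 by DESeq2, and for ‘Bing’ 5 higher and 3 lower, against 9 and 3 without the filter, 0 by DESeq2, and 0 to 22 higher and 0 to 32 lower on leaving out 1 library. Of the 3 genes, the lower fruits rest on 1 to 6 reads, and each cultivar and tissue rests on 1 library.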
